A study of Mus musculus with 8 samples.

Results

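Cytotoxic granule genes were examined in CT26 tumors of mice given an EP4 antagonist, an anti-PD-1 antibody or both. The set holds 10 genes (Gzma, Gzmb, Gzmk, Gzmm, Prf1, Srgn, Nkg7, Lamp1, Gnptab and Ctsw), taken as all mouse probes on the array whose gene name is one of these, which gave 17 of 56567 probes. All 17 passed the filter on dim probes, as did 31912 probes in all, and the 10 genes are among 21497 gene names tested.

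The tumors grew from 500000 CT26 cells, a BALB/c mouse line of colon carcinoma, placed under the skin of the flank. Tumors were collected after 2 weeks of vehicle, of TP-16 (named BY001 in the sample labels, 75 mg/kg by mouth every day), of an antibody to PD-1 (2 weekly intraperitoneal injections of 50 µg) or of both agents at these doses, and 2 samples per group were hybridised, which gave 8 one-colour arrays. TP-16 blocks EP4, a receptor through which prostaglandin E2 raises cyclic AMP, and PD-1, the target of the antibody, is a receptor that restrains T cells. All groups carried the same implanted tumor, whole tumor tissue was used, and the sources leave unsaid if each sample came from 1 animal or was pooled, so p-values measure the spread between these samples only.

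Killer lymphocytes, that is cytotoxic T cells and natural killer (NK) cells, store their lethal proteins in secretory granules, which are modified lysosomes. On contact with a target the granules fuse with the cell membrane, perforin opens pores, and granzymes, a family of serine proteases, enter the target and cleave proteins that keep it alive. The granule also needs a proteoglycan matrix that holds its cargo, a sorting tag that brings granzymes into it, and membrane proteins that take part in its release.

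Of these 10 genes, 3 (Gzmb, Gzmk and Nkg7) rose under the combination, where 14.2% of all genes were called and 5.59% were called higher. That count was 1 without vehicle replicate 1, 7 without vehicle replicate 2, and 0 without combination replicate 2 or either anti-PD-1 array. With all 8 arrays, 0 of 10 passed the adjusted threshold under TP-16 or anti-PD-1 by limma, where 0.0558% and 0.0744% of all genes did, and 2 passed the unadjusted one in each, against 6.67% and 4.14% of all genes. On their brightest probes, Srgn and Gnptab were also higher under the combination at an adjusted p below the threshold, by less than a fold of 2. Counted by adjusted p alone, at any fold and in either direction, 5 of 10 members passed, against 35.6% of all genes. A dim probe of Srgn was lower under the combination, at a log2 difference of -1.05 (limma adjusted p of 0.0202). Under TP-16 alone, both arrays lay above both vehicle arrays for 4 of 10 genes (Nkg7, Ctsw, Srgn and Gnptab), against 16.5% of all genes. Vehicle replicate 1 was the lowest of the 8 arrays for 8 of the 10 genes, against 15.2% of all genes, and the vehicle samples stood far apart, so values without each of them stand beside the calls they change. Without vehicle replicate 2, 3 members passed the adjusted threshold under TP-16 (Gzma, Nkg7 and Ctsw) and 3 under anti-PD-1 (Gzma, Gzmb and Nkg7), all higher, against 1.21% and 1.02% of all genes. Without vehicle replicate 1, 1 member (Prf1) passed it under TP-16, and it was lower, against 2.47% of all genes.

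The promoters of the 3 genes that rose, and of Prf1, which like Gzmb passed the unadjusted threshold between the combination and TP-16 but not the adjusted one, are shown as the 250 bases before the RefSeq start in the GRCm38.p6 build, written 5′ to 3′ of the gene. Capitals mark matches, on either strand, to the cyclic AMP response element (TGACGTCA), to its core (TGACG, which also lies in the whole element), to an AP-1 site (TGANTCA), a RUNX site (TGTGGT), a T-box site (GGTGTGA) and an NFAT core (GGAAAA).
Gzmb (chr14:56262335-56262584, minus strand): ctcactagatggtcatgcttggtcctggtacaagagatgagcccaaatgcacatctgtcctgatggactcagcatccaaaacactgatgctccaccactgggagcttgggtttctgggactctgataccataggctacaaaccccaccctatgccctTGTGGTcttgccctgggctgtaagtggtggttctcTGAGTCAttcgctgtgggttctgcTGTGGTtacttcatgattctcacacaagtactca
Gzmk (chr13:113180966-113181215, minus strand): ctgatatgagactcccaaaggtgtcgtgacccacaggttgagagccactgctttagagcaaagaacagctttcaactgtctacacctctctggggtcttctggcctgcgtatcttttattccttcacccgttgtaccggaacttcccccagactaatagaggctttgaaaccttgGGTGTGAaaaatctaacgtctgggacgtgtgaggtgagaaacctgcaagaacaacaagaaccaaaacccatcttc
Nkg7 (chr7:43436888-43437137, plus strand): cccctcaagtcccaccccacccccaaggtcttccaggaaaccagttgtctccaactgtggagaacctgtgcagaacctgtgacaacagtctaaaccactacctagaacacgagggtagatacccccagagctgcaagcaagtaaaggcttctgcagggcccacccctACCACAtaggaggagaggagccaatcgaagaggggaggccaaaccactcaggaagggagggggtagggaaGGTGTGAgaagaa
Prf1 (chr10:61297586-61297835, plus strand): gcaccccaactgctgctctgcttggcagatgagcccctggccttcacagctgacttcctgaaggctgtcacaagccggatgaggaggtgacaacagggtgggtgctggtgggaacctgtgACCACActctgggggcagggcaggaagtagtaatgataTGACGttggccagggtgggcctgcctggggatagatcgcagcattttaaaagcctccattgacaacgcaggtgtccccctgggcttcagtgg

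With positions counted back from the start to the first base shown of each match, the Gzmb window held an AP-1 match at -58 and RUNX matches at -93 and -34. Gzmk had 1 match, a T-box match at -75, and Nkg7 had a RUNX match at -83 and a T-box match at -13. In the Prf1 window a RUNX match stood at -130 and the core of a cyclic AMP response element at -92. Among 32851 mouse promoter windows of the same length, 14% held the RUNX letters, 3.33% the T-box letters, 6.75% the AP-1 letters, 17.8% the core, 1.55% the whole element and 20.4% the NFAT core. These matches describe the letters only.

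Levels are log2 intensities relative to the 75th percentile of the same array, so a level of 0 equals that percentile, and a gene is described by its brightest tested probe. Levels of different probes are not set against each other, since each probe binds its RNA with its own strength. A gene was called by limma over all 8 arrays where its fold reached 2 and its p, adjusted over all 31912 probes after Benjamini and Hochberg, was 0.05 or less. A looser count, at the threshold in the study's methods, takes the same fold with an unadjusted p of 0.05 or less. The median log2 difference of all probes from vehicle was -0.12 under TP-16, -0.097 under anti-PD-1 and -0.20 under the combination, so a member at 0 lay above the bulk of the array by that amount.

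**Figure D1:**
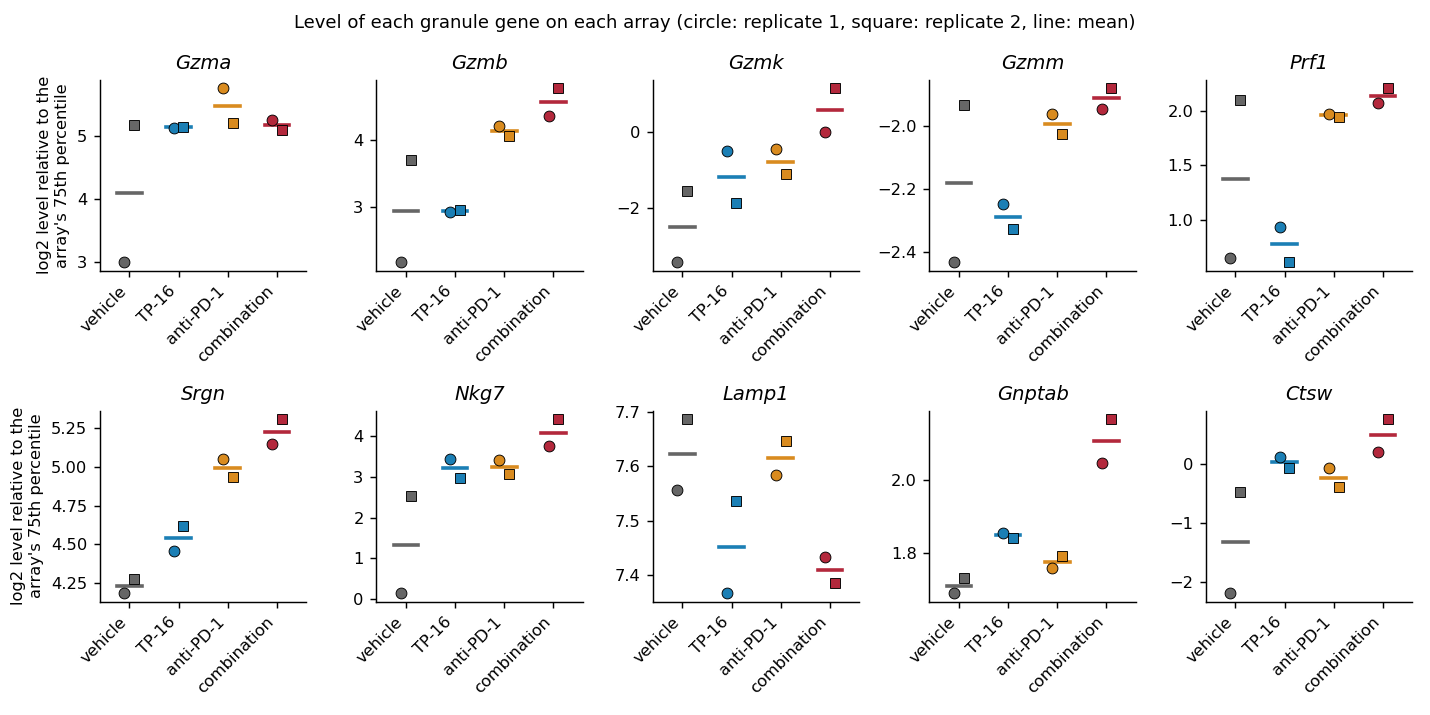
The level of each gene (log2, relative to the 75th percentile of the array, with an own vertical scale per panel) is plotted for the 8 arrays, with circles for replicate 1, squares for replicate 2 and a line at the mean of each group. Vehicle replicate 1 is the lowest array in 8 of 10 panels, and both combination arrays lie above the 6 others in 6 panels.

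The granzymes with a basic-residue preference, Gzma and Gzmk, gave different pictures. Gzma (NM_010370, mm9 chromosome 13, 113884035 to 113884094), a tryptase abundant in killer cells, had levels of 3.003 and 5.18 in vehicle, 5.13 and 5.15 under TP-16, 5.75 and 5.21 under anti-PD-1, and 5.25 and 5.09 under the combination. Only vehicle replicate 1 stood apart, and the other vehicle array lay among the treated ones. The log2 fold change against vehicle was 1.08 under the combination (standard error 0.66, limma adjusted p of 0.249), and it was -0.0046 without vehicle replicate 1 and 2.17 without vehicle replicate 2 (limma adjusted p of 0.991 and 0.0184). Under TP-16 and anti-PD-1 the differences were 1.05 and 1.39 (limma adjusted p of 0.355 and 0.391). They were -0.036 and 0.31 without vehicle replicate 1, and passed the threshold at 2.14 and 2.48 without vehicle replicate 2 (limma adjusted p of 0.043 and 0.0326).

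Gzmk, a neighbour of Gzma on chromosome 13 (113961816 to 113961875, ENSMUST00000122399), had levels of -3.44 and -1.56 in vehicle, -0.49 and -1.88 under TP-16, -0.45 and -1.12 under anti-PD-1, and -0.00055 and 1.16 under the combination. Both combination arrays lay above all others, and both anti-PD-1 arrays lay above both vehicle arrays, while TP-16 overlapped vehicle. Gzmk rose by 3.08 under the combination (fold 8.47, standard error 0.79, 95% interval 1.13 to 5.03, limma adjusted p of 0.0338), and under the single agents the differences were 1.32 and 1.72 (limma adjusted p of 0.335 and 0.383). With vehicle replicate 1 left out these were 0.38 and 0.78, and with vehicle replicate 2 left out 2.26 and 2.66 (limma adjusted p of 0.782, 0.618, 0.191 and 0.251). Without vehicle replicate 1 the combination difference was 2.14 (limma adjusted p of 0.0927), and the adjusted p was 0.0623 and 0.175 without combination replicates 1 and 2 and 0.0585 without either anti-PD-1 array, which enters the fit through the shared spread. It was 0.0527 without the filter on dim probes and 0.083 with the compared groups alone.

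A further Gzmk probe (NM_008196, 113962100 to 113962159) followed the first with a Pearson r of 0.985 over the 8 arrays. It gave 2.68 for the combination (limma adjusted p of 0.0471), with 1 of the 2 vehicle arrays well above background. The probe is shown because its letters read through in 1 frame without a stop codon and because 2 separate stretches of the gene then carry the rise. No capitals are used in it.
Gzmk probe: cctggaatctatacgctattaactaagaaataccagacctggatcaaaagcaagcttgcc

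Gzmb (NM_013542, chromosome 14, 56877916 to 56877975) cuts after aspartate and activates caspases in the target cell. Its levels were 2.17 and 3.70 in vehicle, 2.93 and 2.94 under TP-16, 4.21 and 4.07 under anti-PD-1, and 4.37 and 4.78 under the combination. Both TP-16 arrays lay between the vehicle arrays, and all 4 arrays with the antibody lay above the 4 without it. The probe shared at most 13 bases in a row with a probe of another gene and no run of 12 or more with a probe of another granzyme.

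Against vehicle, Gzmb differed by 0.0020 under TP-16 (95% interval -1.17 to 1.17), by 1.21 under anti-PD-1 (fold 2.31, limma unadjusted p of 0.0449, adjusted p of 0.335) and by 1.64 under the combination, the last of which passed adjustment (limma adjusted p of 0.046). The step from TP-16 to the combination was of the same size, 1.64 (fold 3.12, standard error 0.47, limma unadjusted p of 0.0141, adjusted p of 0.15), and the vehicle arrays enter only its p, through the shared spread. The step from anti-PD-1 to the combination was 0.44 (95% interval -0.73 to 1.60). Without vehicle replicate 1, the combination difference was 0.88, under a fold of 2, at a limma adjusted p of 0.0379, and without vehicle replicate 2 it was 2.41 (limma adjusted p of 0.0117). Under anti-PD-1 the difference was 0.44 without vehicle replicate 1 and 1.97 without vehicle replicate 2 (limma adjusted p of 0.344 and 0.0349). For the combination the adjusted p was 0.099 and 0.207 without combination replicates 1 and 2, 0.0752 without either TP-16 array and 0.0788 without either anti-PD-1 array. It was 0.0594 without the filter on dim probes and 0.131 with the compared groups alone.

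Gzmm (NM_008504, chromosome 10, 79157946 to 79158005), a granzyme typical of NK cells, lay between -2.43 and -1.88 on all arrays. Its level was -2.43 and -1.93 in vehicle, -2.25 and -2.33 under TP-16, -1.96 and -2.03 under anti-PD-1, and -1.94 and -1.88 under the combination. Antibody arrays were close together and above TP-16, but no comparison passed the unadjusted threshold. The combination differed from vehicle by 0.27 (limma adjusted p of 0.278), a sign that turned to -0.010 with normexp background correction, and from TP-16 by 0.37 (limma adjusted p of 0.274). Under TP-16 the difference was -0.11, and 0.11 after quantile normalization. Its other probe had a Pearson r of 0.312 with it over 8 arrays and differed from vehicle by -0.56 under anti-PD-1 and by -0.17 under the combination (limma adjusted p of 0.425 and 0.69), against 0.19 and 0.27 for the brightest probe.

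The pore former Prf1 (NM_011073, chromosome 10, 60766941 to 60767000) had levels of 0.65 and 2.10 in vehicle, 0.94 and 0.61 under TP-16, 1.97 and 1.94 under anti-PD-1, and 2.07 and 2.20 under the combination. All antibody arrays and vehicle replicate 2 were high, and both TP-16 arrays and vehicle replicate 1 were low. No difference from vehicle passed the threshold: it was -0.60 under TP-16, 0.58 under anti-PD-1 and 0.76 under the combination (limma adjusted p of 0.426, 0.551 and 0.228). The combination lay 1.36 above TP-16 (fold 2.57, standard error 0.44, limma unadjusted p of 0.0227, adjusted p of 0.167). The vehicle arrays decide the sign for TP-16, which was -1.32 without vehicle replicate 1 (limma adjusted p of 0.0426) and 0.12 without vehicle replicate 2, and for anti-PD-1, which was -0.14 without vehicle replicate 1. Under the combination it was 0.041 without vehicle replicate 1 (limma adjusted p of 0.879) and passed the threshold at 1.48 without vehicle replicate 2 (limma adjusted p of 0.0195).

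Srgn encodes serglycin, the proteoglycan core of the granule matrix, which mast cells and macrophages also make. Its brightest probe (NM_011157, chromosome 10, 61957432 to 61957491) had levels of 4.18 and 4.27 in vehicle, 4.46 and 4.62 under TP-16, 5.05 and 4.94 under anti-PD-1, and 5.15 and 5.31 under the combination. The 4 groups did not overlap and stood in that order. The combination difference was 1.00 (fold 1.999, just under 2, standard error 0.12, limma adjusted p of 0.0102), that of anti-PD-1 was 0.77 (unadjusted p of 0.000864, adjusted p of 0.196) and that of TP-16 was 0.31 (unadjusted p of 0.0467, adjusted p of 0.188). The step from TP-16 to the combination was 0.69 (unadjusted p of 0.00146, limma adjusted p of 0.116). Without combination replicate 2 the difference from vehicle was 0.92 (limma adjusted p of 0.065). Srgn passed the fold, and so was called, in 5 of the alternatives, at 1.26 after quantile normalization, 1.11 with normexp, 1.27 with the authors' values, 1.04 without vehicle replicate 2 and 1.08 without combination replicate 1.

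The 3 probes of Srgn disagreed. A dim probe of the transcript ENSMUST00000162956, whose 60 bases span 61970557 to 61975869 and so cross an intron, had levels of -2.55 and -1.93 in vehicle and -3.18 and -3.41 under the combination. It fell by 1.05 on the log2 scale (limma adjusted p of 0.0202), and its Pearson r with the brightest probe was -0.617 over 8 arrays. Another dim probe (ENSMUST00000159020, 61970483 to 61970542), well above background on 7 of 8 arrays, differed from vehicle by -0.55 under TP-16, by -0.53 under anti-PD-1 and by 0.34 under the combination (limma adjusted p of 0.38, 0.511 and 0.497). Its Pearson r with the brightest probe was 0.236.

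Nkg7 (NM_024253, chromosome 7, 50693482 to 50693541) encodes a granule membrane protein that takes part in degranulation of T cells and NK cells. Its levels were 0.15 and 2.53 in vehicle, 3.45 and 2.99 under TP-16, 3.42 and 3.07 under anti-PD-1, and 3.77 and 4.42 under the combination. All 6 treated arrays lay above both vehicle arrays, and both combination arrays lay above the rest. The difference from vehicle was 1.88 under TP-16 and 1.90 under anti-PD-1 (limma unadjusted p of 0.046 and 0.0442, adjusted p of 0.186 and 0.333), and 2.76 under the combination (fold 6.75, standard error 0.74, limma adjusted p of 0.0385). Among the called genes, Nkg7 was the one that kept its call without vehicle replicate 1, at 1.57 (limma adjusted p of 0.0359). Without vehicle replicate 2 it was called under TP-16 at 3.07 and under anti-PD-1 at 3.09 (limma adjusted p of 0.0428 and 0.0436), and without vehicle replicate 1 these were 0.69 and 0.72. For the combination its adjusted p was 0.0877 and 0.184 without combination replicates 1 and 2, 0.0631 without either TP-16 array and 0.0673 without either anti-PD-1 array. It was 0.0527 without the filter on dim probes, 0.113 with the compared groups alone and 0.0513 with trended moderation.

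Lamp1 (NM_010684, chromosome 8, 13175277 to 13175336) encodes a membrane protein of lysosomes in all cells, which appears on the surface of killer cells when granules are released. Its level lay between 7.37 and 7.69 on all arrays. Against vehicle it differed by -0.17, -0.0068 and -0.21 in the order TP-16, antibody and combination (limma adjusted p of 0.385, 0.983 and 0.198). The sign depended on the scaling in all 3 comparisons, with 0.17, 0.11 and 0.48 after quantile normalization (limma adjusted p of 0.418, 0.678 and 0.0369), so no direction is given.

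Gnptab encodes the enzyme that starts the mannose 6-phosphate tag, by which granzymes are sorted into granules. Its probe (NM_001004164, chromosome 10, 87909935 to 87909994) had levels of 1.69 and 1.73 in vehicle, 1.86 and 1.84 under TP-16, 1.76 and 1.79 under anti-PD-1, and 2.05 and 2.17 under the combination. On this probe the combination arrays stood above the 6 others, with close replicates. The difference was 0.40 (fold 1.32, standard error 0.10, limma adjusted p of 0.0325). A dimmer probe, at a Pearson r of 0.858, gave 0.88 (limma adjusted p of 0.0923), with 0 of the 2 vehicle arrays well above background. There combination replicate 1 (-3.63) lay below TP-16 replicate 1 (-3.59) and anti-PD-1 replicate 2 (-3.52). On the brightest probe the step over TP-16 alone was 0.26, and over the antibody alone 0.33 (limma unadjusted p of 0.0429 and 0.0168, adjusted p of 0.209 and 0.121). Leaving out any single array kept the direction, with limma adjusted p of 0.0571 to 0.157 for the combination against vehicle.

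Ctsw (NM_009985, chromosome 19, 5465315 to 5465374) encodes cathepsin W, a cysteine protease of T cells and NK cells. Its levels were -2.18 and -0.47 in vehicle, 0.12 and -0.070 under TP-16, -0.079 and -0.40 under anti-PD-1, and 0.21 and 0.75 under the combination. The treated arrays all lay above both vehicle arrays, as they did for Nkg7. The differences were 1.35, 1.09 and 1.81 (limma unadjusted p of 0.0487, 0.0941 and 0.0166, adjusted p of 0.191, 0.404 and 0.0511) in the order TP-16, antibody and combination. Without vehicle replicate 1 they were 0.49, 0.23 and 0.95 (limma adjusted p of 0.322, 0.693 and 0.0628). Without vehicle replicate 2 they were 2.21, 1.94 and 2.67 (limma adjusted p of 0.0493, 0.0701 and 0.0161), so Ctsw was then called under TP-16 and the combination. The combination was also called for Ctsw with normexp, with probes above background on all arrays and with trended moderation (limma adjusted p of 0.015, 0.037 and 0.0454). Its second probe followed at a Pearson r of 0.999 and gave 2.03 for the combination (limma adjusted p of 0.0556); it is shown because its letters read through without a stop codon in all 3 frames.
Ctsw probe: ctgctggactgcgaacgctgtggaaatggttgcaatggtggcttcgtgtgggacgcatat

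**Figure D2:**
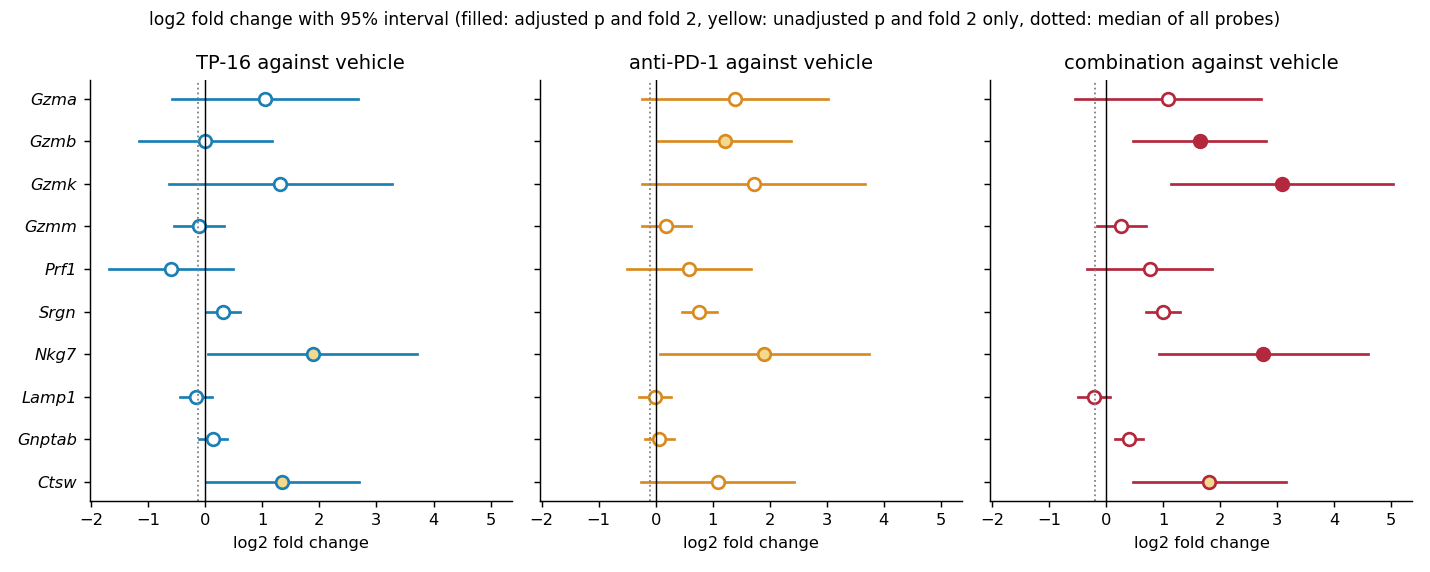
The log2 fold change of each gene is plotted for the 3 treatments against vehicle, with its 95% interval; filled points passed adjusted p and fold 2, yellow points passed unadjusted p and fold 2 only, and the dotted line is the median of all probes. Gzmb, Gzmk and Nkg7 are filled under the combination, and intervals are wide where the vehicle replicates stood apart.

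Counted over the set, 0 of 10 members were called at adjusted p under TP-16 and 0 of 10 under anti-PD-1 by limma, against 0.0558% and 0.0744% of all genes. At the unadjusted threshold 2 of 10 passed under TP-16 (Nkg7 and Ctsw) and 2 of 10 under anti-PD-1 (Gzmb and Nkg7), against 6.67% and 4.14% of all genes. The methods' t-test passed 0 of 10 in both, against 1.86% and 1.08% of genes. Under the combination 3 of 10 were called at adjusted p, against 14.2% of all genes, and all 3 were higher, against 5.59% of genes called higher. At the unadjusted threshold 4 of 10 passed (Ctsw in addition), against 17.1% of genes in either direction and 6.65% higher. The methods' t-test passed 0 of 10 here too, against 8.22% of genes. Without vehicle replicate 1 the adjusted count under the combination was 1 (Nkg7) of 10, against 15% of genes, and without vehicle replicate 2 it was 7, against 12.4%. It was 1 or 0 with any of the 6 treated arrays left out, against 11.9% to 13.5% of genes, except that without combination replicate 2 it was 0 of 10 and 0 of all 21497 genes by limma, with 10.5% of genes at the unadjusted threshold. Under the single agents, leaving out vehicle replicate 2 gave 3 adjusted calls in each, against 1.21% of genes for TP-16 and 1.02% for the antibody. The unadjusted counts were then 4 and 6, against 8.68% and 5.89% of genes. Leaving out vehicle replicate 1 gave 1 adjusted call for TP-16 (Prf1, lower), against 2.47% of genes, and 0 for the antibody by limma, against 0.474%. The unadjusted counts were then 1 (Prf1) and 0, against 8.89% and 6.86% of genes. Leaving out any treated array gave 0 unadjusted calls by limma, against 5.27% to 7.01% of genes for TP-16 and 3.15% to 4.1% for the antibody. The median log2 difference of the members was 0.22 under TP-16, 0.93 under the antibody and 1.04 under both, where the medians over all genes were -0.15, -0.099 and -0.24. Without vehicle replicate 1 the medians of the members were 0.042, 0.27 and 0.63, and without vehicle replicate 2 they were 0.56, 1.62 and 1.83. All 3 comparisons share the same 2 vehicle arrays.

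Both combination arrays lay above the 6 others for 6 of 10 members (Srgn, Gzmb, Nkg7, Gnptab, Ctsw and Gzmk), as they did for 13.6% of all genes. They lay above both TP-16 arrays for 8 of 10 members and above both anti-PD-1 arrays for 8 of 10, against 23% and 23.2% of genes. Anti-PD-1 arrays lay above vehicle for 7 of 10, against 15.7%. By the unadjusted threshold, 2 of 10 members (Gzmb and Prf1) differed between the combination and TP-16, against 4.89% of genes. At adjusted p it was 0 of 10 and 0 of all 21497 genes by limma. Between the combination and anti-PD-1 the count was 0 of 10 at either threshold by limma, against 4.72% of genes at the unadjusted one and 0.014% at the adjusted one. The methods' t-test passed 2 of 10 for the first of these comparisons and 0 of 10 for the second, against 1.87% and 2% of genes. The 2 members that differed from TP-16 became 0 by limma without TP-16 replicate 2 or combination replicate 2, against 3.02% and 2.48% of genes, and 1 (Gzmb) without combination replicate 1, against 6.84%. They became Gzmk and Prf1 without TP-16 replicate 1, against 6.95%, and 3 (Gzmb, Gzmk and Prf1) without either vehicle array, against 5.59%.

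Departure from additivity, that is the combination minus both single agents plus vehicle, was called for 0 of 10 members by limma at either threshold. Of all 21497 genes, 3.28% passed the unadjusted one and 0 the adjusted one. The estimates ran from -1.36 (Gzma) to 0.78 (Prf1), and the lowest unadjusted p was 0.198. The interval for Gzmb was -1.22 to 2.09. The unadjusted count was 2 (Gzmb and Prf1) without vehicle replicate 1, against 5.83% of genes, and 3 (Gzma, Nkg7 and Ctsw) without vehicle replicate 2, against 4.94%.

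**Figure D3:**
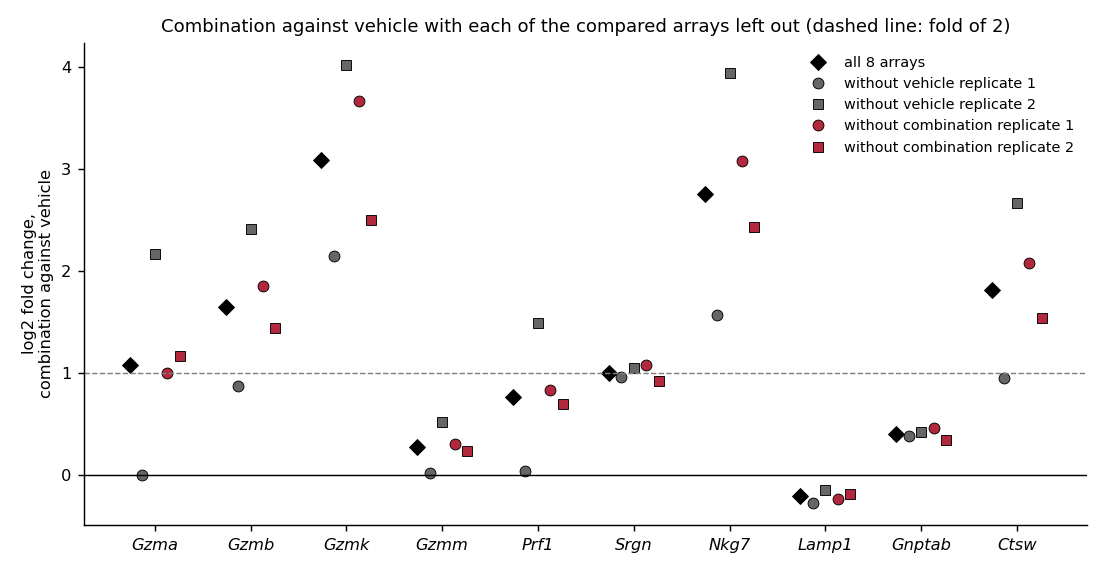
The log2 fold change of the combination against vehicle is plotted for each gene with all 8 arrays (diamonds) and with 1 of the compared arrays left out, grey for vehicle and red for the combination; the dashed line is a fold of 2. The points without vehicle replicate 1 and without vehicle replicate 2 are the farthest apart for Gzma, Gzmb, Gzmk, Prf1, Nkg7 and Ctsw, and close together for Srgn and Gnptab.

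Other genes of the granule pathway were counted from lists. Of 8 tested genes for granzyme maturation and sorting, 2 rose under the combination, against 5.59% of all genes called higher, and 0 fell: Ctsc, the dipeptidase that removes the propeptide of granzymes, by 1.65, and Ctsh by 1.57 (limma adjusted p of 0.0157 and 0.0202). Of 21 tested genes for granule docking and exocytosis, 5 rose, against the same 5.59% of all genes, and 0 fell, among them Sytl2 (2.29), Unc13d, which primes granules for fusion (1.89), and Rab27a, the small GTPase that docks them (1.82, with 1 of the 2 vehicle arrays well above background). Of 19 general lysosome genes 0 passed the fold with an adjusted or an unadjusted p by limma, with a median of 0.31. Among 3 granzyme inhibitors of the serpin family, 1 (Serpinb6b) rose, by 1.49 (limma adjusted p of 0.0161), against 5.59% of all genes. Serpinb6a, named after its values were seen, differed by -0.83, under a fold of 2 (limma adjusted p of 0.0126). Under TP-16 and anti-PD-1 alone 0 genes of these 4 lists were called at adjusted p by limma, against 0.0558% and 0.0744% of all genes. At the unadjusted threshold 0 passed under TP-16 and 1 under anti-PD-1, against 6.67% and 4.14% of all genes.

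The granzymes C, D, E, F, G and N are neighbours of Gzmb on mouse chromosome 14. Under TP-16 all 6 were lower than vehicle at the unadjusted threshold, against 5.11% of all genes. At the adjusted one 0 were, against 0.0512% of all genes called lower. Their median log2 difference was -3.55, with limma adjusted p of 0.0541 to 0.082. Gzmb differed by 0.0020 in the same arrays, a value that was -0.76 without vehicle replicate 1 and 0.77 without vehicle replicate 2. Gzmn was well above background on 1 of the 2 vehicle arrays and on 0 of the 2 TP-16 arrays.

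In whole tumor tissue, fewer cells of a type and less RNA per cell cannot be told apart. Among T-cell markers, 5 of 10 rose under the combination, against 5.59% of all genes (Cd8a by 3.76, Cd2 by 3.20 and Cd5 by 3.19). Cd8a was well above background on 1 of the 2 vehicle arrays. Its levels were -5.02 and -1.43 in vehicle and 0.21 and 0.86 under the combination. Cd247 and Cd4, named after their values were seen, differed by -0.27 and 0.41 (limma adjusted p of 0.193 and 0.0881). The log2 of the summed level of all 10 T-cell markers ran from 3.14 and 4.38 in vehicle to 5.31 and 6.07 under the combination. Of 9 genes listed as NK-cell markers 4 rose, against the same 5.59% of all genes (Tbx21 by 2.90, Klra8 by 1.98 and Klrb1c by 1.77). Whether their probes read NK cells alone was not tested. The summed levels of this list were 1.03 and 2.98 in vehicle and 3.78 and 4.41 under the combination. Both sums were lowest on vehicle replicate 1. Under TP-16 the T-cell sums were 5.04 and 4.76 and the NK-cell sums 3.61 and 3.24, and under anti-PD-1 they were 5.05 and 4.72, and 3.53 and 3.01, all above both vehicle arrays. At the unadjusted threshold 5 of 10 T-cell and 4 of 9 NK-cell markers were higher under TP-16, and 3 and 2 under anti-PD-1. Of all genes, 6.67% and 4.14% passed it in either direction. At the adjusted one 0 of these markers passed by limma, against 0.0558% and 0.0744% of all genes. Mast cells also carry Srgn, and 7 of 8 mast-cell markers rose (Cpa3 by 1.91), with sums of 3.98 and 4.43 in vehicle, 4.30 and 4.62 under TP-16, 5.28 and 5.56 under anti-PD-1 and 5.60 and 5.88 under the combination. Of the other lists, 6 of 10 macrophage markers and 3 of 8 fibroblast markers rose. Of 8 neutrophil markers 2 (S100a8 and S100a9) fell and 0 rose by limma, while the median log2 difference of that list was 0.315. Of 7 B-cell and plasma-cell markers 2 rose and 3 fell, and 1 of 4 epithelial markers, Krt18, fell. Of all genes, 8.62% were called lower. Of the epithelial markers, Epcam did not pass the filter on dim probes. The part of these cell types in the members' levels was not tested.

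The level of a member relative to the summed T-cell markers of the same array differed in its pattern between members. This measure was chosen after the values were seen and has no test. On vehicle replicate 1, Cd247 had the largest part in the T-cell sum (level 1.85), and it differed by -0.27 under the combination. For Nkg7 it was -2.98 and -1.86 in vehicle and between -1.77 and -1.54 on all 6 treated arrays, and for Ctsw it was -5.32 and -4.85 in vehicle and between -5.32 and -4.83 on the treated ones. Leaving aside vehicle replicate 1, both genes varied less relative to the T-cell markers than their own levels did.

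For Gzmb the difference was -0.97 and -0.68 in vehicle, -2.12 and -1.82 under TP-16, -0.84 and -0.65 under anti-PD-1, and -0.95 and -1.30 under the combination. Prf1 gave -2.49 and -2.29, then -4.11 and -4.15, then -3.08 and -2.78, and under the combination -3.24 and -3.87. Both genes were lowest relative to T-cell markers on the TP-16 arrays, and the TP-16 arrays were also lowest for both relative to the summed NK-cell markers. Gzmk gave -6.58 and -5.94 in vehicle, -5.53 and -6.64 under TP-16, -5.50 and -5.83 under anti-PD-1, and -5.31 and -4.91 under the combination, whose arrays were the highest. The other members, Gzma, Gzmm, Srgn, Lamp1 and Gnptab, were lowest on combination replicate 2, the array with the highest T-cell sum.

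**Figure D4:**
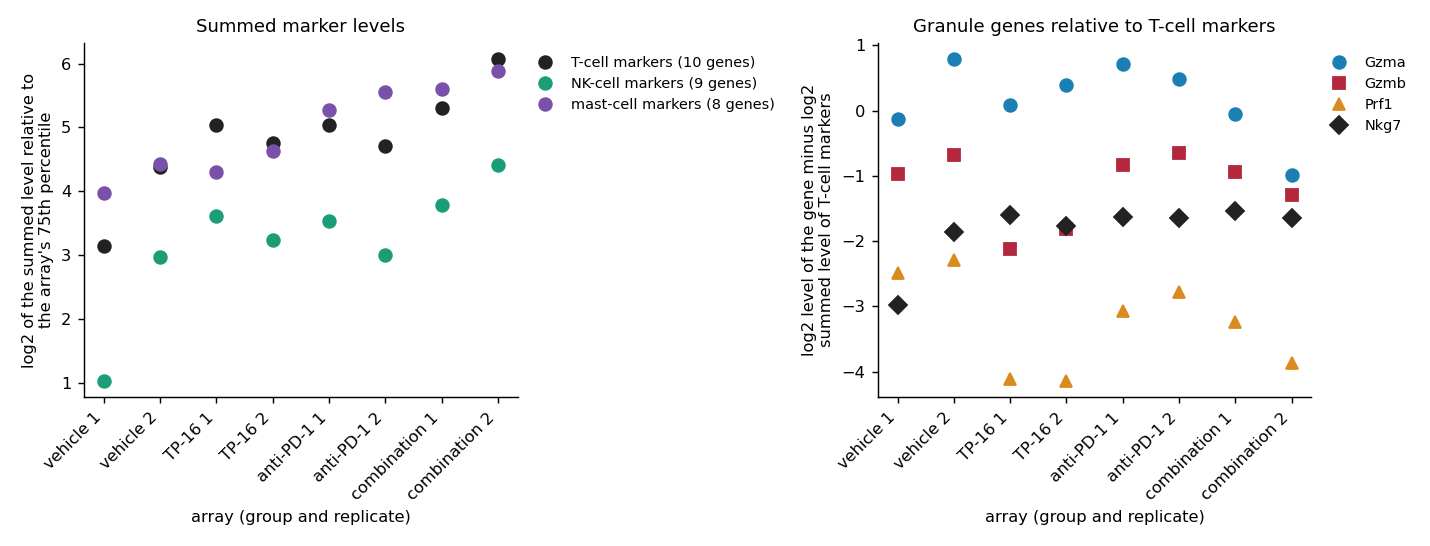
The log2 summed level of T-cell, NK-cell and mast-cell markers (left) and the log2 level of Gzma, Gzmb, Prf1 and Nkg7 minus the log2 summed T-cell marker level (right) are plotted for the 8 arrays; heights are compared between arrays within a gene, not between genes. Marker sums are lowest on vehicle replicate 1, and Gzmb and Prf1 are lowest relative to T-cell markers under TP-16.

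Among the members themselves, the closest pairs over the 8 arrays were Nkg7 with Ctsw (Pearson r of 0.99), Gzmm with Prf1 (0.983) and Gzmb with Gzmm (0.949). Lamp1 had r from -0.735 (Gnptab) to 0.136 (Prf1) with the other members. Outside the set, the genes most like Gzma were H2-K2 (0.995), H2-L (0.994), Psmb10 (0.987), Ifi35 (0.986) and H2-D1 (0.985). For Gzmb they were Azin2 (0.988), Il2ra (0.978), Ddc (0.978), Sfxn5 (0.977) and Prm1 (0.974), and for Prf1 Gm1673 (0.975), Adgrb2 (0.960), Nhlrc1 (0.956), Kat8 (0.952) and Zkscan4 (0.951). These are the highest of 21497 genes over 8 arrays that share 4 treatments, and are given as a description.

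The 8 arrays shared 1 slide and 1 scan, with 53.5% to 61.5% of spots well above background and no saturated member spot. Vehicle and TP-16 filled row 1 and both antibody groups row 2, so slide row and antibody cannot be told apart, nor can slide column and TP-16.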

How the data were processed

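One-colour Agilent SurePrint G3 mouse arrays were used for 2 samples in each of the 4 groups. The study's methods name TRIzol for extraction and the sample labels a column kit. The authors deposited the scanner output, in which each spot's intensity is background-subtracted and detrended by Feature Extraction 10.7.1.1 (per the submitters' processing notes), and a table of log2 values that the authors attribute to GeneSpring. Sorted columns of that table differed by at most 0.00115, and it served as an alternative.

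Control spots and outlier spots were removed, 38 probes without an unmarked spot on some array were left out, spots of a probe were averaged, and log2 intensities were set relative to the 75th percentile of the array. A probe was tested if both arrays of some group had it well above background, in limma 3.58.1 (R 4.3.3) with 1 mean per group over all 8 arrays (4 residual degrees of freedom). Background shares count 1 probe per gene. Every member was named, with up to 3 called genes per related list and the 5 genes most like Gzma, Gzmb and Prf1. The members and lists were chosen with earlier results of these data known. RefSeq symbols named 58.3% of probes, and probe positions are those of the array annotation (mm9). Sequences come from RefSeq and the scanner files, and 9 of 10 members had a promoter entry. Calculations were tested on simulated data, figures used matplotlib 3.10.9 under Python 3.11.15, and the number of arrays limits the precision.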

Additional observations from a re-analysis of the deposited data

How the results depend on the processing

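Alternatives to the scaling were quantile normalization, normexp (offset 50) and the authors' log2 values. Alternatives to the features were no filter on dim probes, only probes above background everywhere, and the median of a gene's probes. Alternatives to the test were a replicate block, fits restricted to the compared groups, trended robust moderation, the methods' t-test and each array left out. A slide block was not run, since there is 1 slide.

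Under the combination, the 3 members called at adjusted p became 5 with normexp (Srgn and Ctsw gained). They became 4 with quantile normalization and the authors' values (Srgn gained), and 4 with probes above background everywhere (Ctsw gained). The count was 0 without the filter, in the compared groups only and by the methods' t-test. With trended moderation 3 members were called, but Nkg7 lost its call (limma adjusted p of 0.0513) and Ctsw gained one. Of all genes, 14.2% were called in the main fit and 11.4% with quantile normalization. That share was not counted for the other settings just named, so their counts are not read as a result about the members. Leaving out 1 array gave 0 to 7, with 1 (Nkg7) without vehicle replicate 1 and 7 without vehicle replicate 2; fits with fewer arrays have fewer degrees of freedom. The 4 called at the unadjusted threshold became 5 with quantile normalization, normexp and the authors' values (Srgn gained), 3 in the compared groups only, 0 by the methods' t-test and 0 to 7 with 1 array left out. Leaving out an array gave 0 to 3 adjusted calls for TP-16 and 0 to 3 for anti-PD-1, and 0 to 4 and 0 to 6 unadjusted calls. For TP-16, the 2 unadjusted calls became 1 with quantile normalization, normexp, the median of probes, the replicate block, the authors' values and trended moderation, and 0 without the filter, in the compared groups only and by the methods' t-test. For anti-PD-1 they became 3 with normexp (Gzma gained), 1 with quantile normalization, the authors' values and trended moderation, and 0 without the filter, in the compared groups only and by the methods' t-test. Against TP-16, the combination had 0 to 3 calls with 1 array left out, and against anti-PD-1 it had 1 in the compared groups only (Gzmk). Additivity had 0 to 3 with 1 array left out.

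Directions turned as follows. With 1 array left out, differences from vehicle under TP-16 ran from -0.036 to 2.14 for Gzma, from -0.76 to 0.77 for Gzmb (-0.0065 without TP-16 replicate 2), from -0.36 to 0.14 for Gzmm and from -1.32 to 0.12 for Prf1. Under anti-PD-1 they ran from -0.062 to 0.44 for Gzmm, from -0.14 to 1.30 for Prf1 and from -0.071 to 0.058 for Lamp1 (0.024 without anti-PD-1 replicate 1), and under the combination from -0.0046 to 2.17 for Gzma. The ends of these ranges are the fits without vehicle replicate 1 or 2. Quantile normalization and the authors' values both gave 0.11 for Gzmm under TP-16, and for Lamp1 0.17, 0.11 and 0.48 under TP-16, the antibody and both. Normexp gave -0.010 for Gzmm under the combination and 0.015 for Lamp1 under anti-PD-1. The median of probes gave -0.19 for Gzmm under anti-PD-1, and for Srgn -0.72, -0.29 and -0.80 against vehicle and -0.079 against TP-16; the median Srgn probe on combination replicate 2 is another one than on the other arrays, so the combination values mix probes. The causes were not tested.

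Same-numbered replicates shared only a number: deviations of replicate 1 correlated between groups at -0.19 to 0.29. With the replicate number as a block, 2 members (Gzmb and Nkg7) were called at adjusted p under the combination, against 13.6% of all genes. Gzmk then had a limma adjusted p of 0.0529.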
